A study of Mus musculus with 4 samples.

Results

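Bone marrow mesenchymal stromal cells (MSCs) were examined for 9 genes, the SIBLING family (Spp1, Ibsp, Dmp1, Mepe and Dspp) and the osteocyte genes Phex, Sost, Fgf23 and Pdpn. The genes were chosen by name, and each matched 1 row of the 56980 genes in the deposited count table. The table holds 1 group of 4 libraries, 1 from each of 4 male mice, labelled young and wild-type and taken from an in-house inbred colony of C57BL/6J. The methods of the study call such mice adult and give their age as 14 weeks. From the femoral marrow of each mouse, 100 cells that carried CD51 and PDGFRa and lacked CD45, Ter119, CD31 and Sca1 were sorted and made into full-length cDNA. There is no second group, so the values below are levels and their spread between mice. Levels are given in TPM, in which the count of a gene is divided by the length of its exons and each library is scaled to 1000000.

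The SIBLING proteins (small integrin-binding ligand, N-linked glycoproteins) are acidic, phosphorylated proteins that are secreted into bone and dentin, where they bind mineral and cell surface integrins. Osteoblasts lay down bone matrix, and some of them become embedded in it as osteocytes, which turn on a further set of genes. Among these are regulators of mineral and phosphate, such as Dmp1, Phex and the hormone gene Fgf23, and the Wnt inhibitor gene Sost.

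In the sorted MSCs, Spp1 and Ibsp were among the most abundant RNAs of all genes, and Dmp1 ranked 102 by its median. Phex, Pdpn and Mepe were lower, with means of 42.2, 24.9 and 40.7 TPM, and Dmp1 exceeded Phex at least 8.75-fold and Mepe at least 17.7-fold in every mouse. Dspp, Sost and Fgf23 had 0 counts in all 4 libraries. A median above 1 TPM was reached by 6 of the 9 genes, or 66.7%, against 22.9% of the 52125 genes with a length and 44.2% of the 21922 protein-coding genes. At least 3 counts in every library were found for 5 of the 9, or 55.6%, since Pdpn had 0 counts in mouse 2, against 19.6% of the genes with a length and 37.5% of the protein-coding genes.

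The libraries held between 22738604 and 43545349 counts on genes, and those of mice 1 and 3 were the deeper pair, up to 1.92 times the shallowest. The genes of the sort antigens were read as a check of the gate. Pdgfra had 30.7 to 48.2 TPM and Itgav, the gene of CD51, 12.9 to 18.1 TPM. Pecam1, the gene of CD31, had at most 14 counts (0.218 TPM) and Ptprc, the gene of CD45, at most 50 (0.264 TPM). Ly6a, the gene of Sca1, had 120 counts (8.95 TPM) in mouse 2 and 144 (11.6 TPM) in mouse 4. It had at most 1 count in mice 1 and 3. In mice 2 and 4 its level was thus not far below that of Itgav, at 14.3 and 17.5 TPM. No gene was read for Ter119, and the erythroid genes are given with Dmp1 below. In a library of sorted cells, fewer cells of a type and less RNA per cell cannot be told apart.

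The SIBLING genes lie side by side in the genome. In the GENCODE M21 annotation of GRCm38 all 5 are on the plus strand of chromosome 5, in the order Dspp, Dmp1, Ibsp, Mepe and Spp1, within 270.3 kb from position 104170712 to 104441050. The counts were made on GRCm39, and no position was converted. The gaps between neighbours measured 22.5, 85.1, 13.9 and 96.5 kb. The promoters of the 4 detected members are printed here, because these neighbours differed in level over a wide range. Each is the run of 200 bases ahead of the transcription start in RefSeq, taken from GRCm38.p6 on the plus strand, at chr5:104434911-104435110 for Spp1, chr5:104299087-104299286 for Ibsp, chr5:104202417-104202616 for Dmp1 and chr5:104325129-104325328 for Mepe. The start used for Ibsp lies 116 bases from the GENCODE start, and the others lie within 7 bases of theirs. Capitals mark ACCACA, the core bound by RUNX factors (TGTGGT on the opposite strand), the CCAAT box (ATTGG on the opposite strand) and the letters TTTAAA, which read the same on both strands.
Spp1: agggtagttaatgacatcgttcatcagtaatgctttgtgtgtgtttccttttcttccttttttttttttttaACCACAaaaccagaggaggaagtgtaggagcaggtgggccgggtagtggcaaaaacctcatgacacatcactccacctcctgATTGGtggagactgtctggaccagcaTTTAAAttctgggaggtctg
Ibsp: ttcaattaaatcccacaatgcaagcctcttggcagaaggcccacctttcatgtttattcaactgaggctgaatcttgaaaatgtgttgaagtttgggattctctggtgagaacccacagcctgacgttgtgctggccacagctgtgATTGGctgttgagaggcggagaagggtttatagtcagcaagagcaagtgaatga
Dmp1: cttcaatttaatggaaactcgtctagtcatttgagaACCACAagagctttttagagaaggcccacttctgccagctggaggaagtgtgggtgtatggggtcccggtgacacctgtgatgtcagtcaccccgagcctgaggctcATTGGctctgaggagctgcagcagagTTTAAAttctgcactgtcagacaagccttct
Mepe: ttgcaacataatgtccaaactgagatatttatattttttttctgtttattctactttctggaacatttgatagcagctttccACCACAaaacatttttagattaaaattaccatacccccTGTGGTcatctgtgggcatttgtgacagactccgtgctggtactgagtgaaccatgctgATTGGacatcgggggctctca

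A CCAAT box stood on the reverse strand of all 4 windows, printed as ATTGG, between 17 and 57 bases ahead of the start. Over all 32851 promoter windows of this length, 29.3% held CCAAT on either strand. ACCACA was found in Spp1, Dmp1 and Mepe and not in Ibsp, against 11.2% of all windows. Mepe held it on both strands, 118 and 80 bases ahead of its start. TTTAAA, searched for after the sequences had been read, was found in Spp1 and Dmp1, 20 and 31 bases ahead, against 9.4% of all windows. All of these motifs were together in Spp1 and Dmp1, and in 0.295% of all windows. Since TTTAAA was added after these promoters had been read, this share cannot test whether the combination is unusual in them. The promoter of Sost, which had no counts, held CCAAT and TTTAAA, and those of Fgf23, Phex and Pdpn held TTTAAA alone. A match of letters is a description and not a site of binding. RefSeq promoters were matched for 8 of the 9 genes, all but Dspp.

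Spp1 (ENSMUSG00000029304, chr5:104435118-104441050) encodes osteopontin, which binds mineral and the integrins of osteoclasts and other cells, and which osteoblasts, osteoclasts and macrophages all can make. Spp1 had 15346, 50489, 72032 and 34947 TPM in mice 1 to 4, and its mean was 43203 ± 24003 TPM (SD, n = 4). It was the highest of all genes in mouse 3 and the seventh in mouse 1, with ranks of 7, 3, 1 and 4 in the 4 mice. The highest mouse had 4.69 times the level of the lowest, and the coefficient of variation between mice was 55.6%. The error of counting reads alone was 0.103%, which leaves out the sampling of 100 cells and the amplification of their cDNA. Mouse 3 was highest and mouse 1 lowest under all 7 scalings compared, which were TPM, TPM by the longest transcript, without mitochondrial genes or without the 10 highest genes, counts scaled without length, and TMM or DESeq2 factors.

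The count of Spp1 has a neighbour inside it. Of its exonic bases, 309 (18.8%) also belong to Gm42793, a transcript of uncertain standing on the same strand. Read pairs that lie wholly on such bases are not assigned by the counting tool in its default setting. Gm42793 itself had 0, 0, 2816 and 140 counts in mice 1 to 4. With the length of Spp1 reduced by the shared bases, an alternative chosen after seeing the data, its mean was 52529 TPM. This alternative treats all the shared bases as uncounted, also for pairs that reach beyond them. The markers of other sources of Spp1 were measured beside it. Among 5 macrophage markers no count at all fell on C1qa, Adgre1 or Csf1r, and the list summed to between 0.254 and 6.72 TPM, highest in mouse 3, where Cd68 had 144 counts. Of 5 osteoclast markers, Dcstamp had 0 counts everywhere, Calcr at most 4 and Ocstamp 53 counts in mouse 1 and 0 in the others. The osteoclast list summed to 683, 274, 548 and 355 TPM in mice 1 to 4, nearly all of it Ctsk and Acp5. Ctsk had 603, 274, 499.7 and 347 TPM and Acp5 79.2, 0, 48.2 and 7.58 TPM. In mouse 2 Ctsk was present and Acp5 had 0 counts. Acp5 is 1 of 378 genes with 0 counts in mouse 2 and at least 100 counts in each other mouse. How far the sum measures osteoclasts was not tested. The part of either cell type in the level of Spp1 was not tested.

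Ibsp (ENSMUSG00000029306, chr5:104299171-104311469) encodes bone sialoprotein, an osteoblast protein that seeds mineral crystals. Ibsp had 11147, 13101, 20907 and 10570 TPM in mice 1 to 4, and its mean was 13931 ± 4775 TPM (SD, n = 4). Mouse 3 was again highest, and the other 3 mice lay close together. Mouse 4 was lowest in TPM, and mouse 1 was lowest without a length correction, without the 10 highest genes in the denominator, and with TMM or DESeq2 factors. Hypertrophic chondrocytes, a further source of Ibsp, are marked by Col10a1, which had at most 1 count. The chondrocyte list of 5 genes summed to between 1.42 and 30.2 TPM and was highest in mouse 1, where Sox9 had 23.3 TPM. Its member Col9a1 was instead highest in mouse 3, as Ibsp was, with 1.82, 0.213, 12.2 and 0.0573 TPM in mice 1 to 4. The part of such cells in the level of Ibsp was not tested.

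Spp1 exceeded Ibsp in 4 of 4 mice, by 1.38-, 3.85-, 3.45- and 3.31-fold in mice 1 to 4. The difference in log2(TPM + 1) was 1.48 ± 0.69 (SD, n = 4). With 4 mice an exact permutation test that flips the sign of each difference cannot give a two-sided p below 0.125, which was its value here. Over the 6 pairs of genes tested, the Benjamini-Hochberg method raised it to 0.15, and the same was true of the other 4 pairs that had 1 direction in all mice. The ranges of both genes over the mice overlapped, from 15346 to 72032 and from 10570 to 20907 TPM. Together the SIBLING genes made up 2.78%, 6.42%, 9.52% and 4.6% of all TPM in mice 1 to 4. Of this sum Spp1 took 71.4% ± 10.9 and Ibsp 26.4% ± 9.23 (SD, n = 4). Mouse 1 differed from the others in that Ibsp took 40.1% there, against 20.4% to 23.0%.

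Dmp1 (ENSMUSG00000029307, chr5:104202613-104214102) encodes dentin matrix protein 1, which late osteoblasts and osteocytes make and whose loss raises Fgf23. Dmp1 had 1262, 588, 2105 and 435 TPM in mice 1 to 4, and its mean was 1097 ± 762 TPM (SD, n = 4). Mice 1 and 3 were above mice 2 and 4, and the highest was 4.84 times the lowest. The coefficient of variation of 69.4% stood above that of 92.2% among 90 genes whose mean was 1000 to 10000 TPM, and their median was 17.4%. Mice 1 and 3 were also those with the deeper libraries and the most haemoglobin RNA, since the erythroid list summed to 4885, 35.0, 1670 and 351 TPM in mice 1 to 4, and the part of these in the level of Dmp1 was not tested. Ibsp exceeded Dmp1 in 4 of 4 mice, by 3.88 ± 0.76 in log2(TPM + 1), and the ranges of these genes did not overlap. The ratio of Ibsp to Dmp1 was 8.83 and 9.93 in mice 1 and 3, and 22.3 and 24.3 in mice 2 and 4.

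Mepe (ENSMUSG00000053863, chr5:104325329-104338611) encodes matrix extracellular phosphoglycoprotein, an osteocyte product whose acidic peptides hold back mineralization. Mepe had 562, 355, 3463 and 100 counts, or 19, 19, 119 and 5.75 TPM, in mice 1 to 4. Mouse 3 stood far above the others, and the mean of 40.7 ± 52.7 TPM (SD, n = 4) fell to 14.6 TPM without it. The coefficient of variation of 129% stood above that of 97.3% among 4673 genes whose mean was 10 to 100 TPM, and their median was 42.4%. Mouse 3 was highest and mouse 4 lowest under all 7 scalings, at ratios between 17.0 and 20.8. Dmp1 exceeded Mepe in 4 of 4 mice, by 5.25 ± 0.91 in log2(TPM + 1).

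Dspp (ENSMUSG00000053268, chr5:104170712-104180127) encodes dentin sialophosphoprotein, the SIBLING protein of tooth dentin. Dspp had 0 counts in all 4 libraries, where 3 counts, taken as the smallest detectable value, are worth 0.0385, 0.0609, 0.0392 and 0.0655 TPM in mice 1 to 4. Its annotated neighbour Dmp1, at 22.5 kb, had at least 12433 counts in each library. On the far side of Dspp, Sparcl1, a SPARC-like matrix gene, had 48 counts in mouse 4 and 0 in the others. Beyond Spp1 at the other end, Pkd2, the gene of polycystin 2, had 9.70, 14.7, 13 and 4.43 TPM. The cluster thus held genes at levels from 0 to over 10000 TPM within 270.3 kb.

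**Figure D1:**
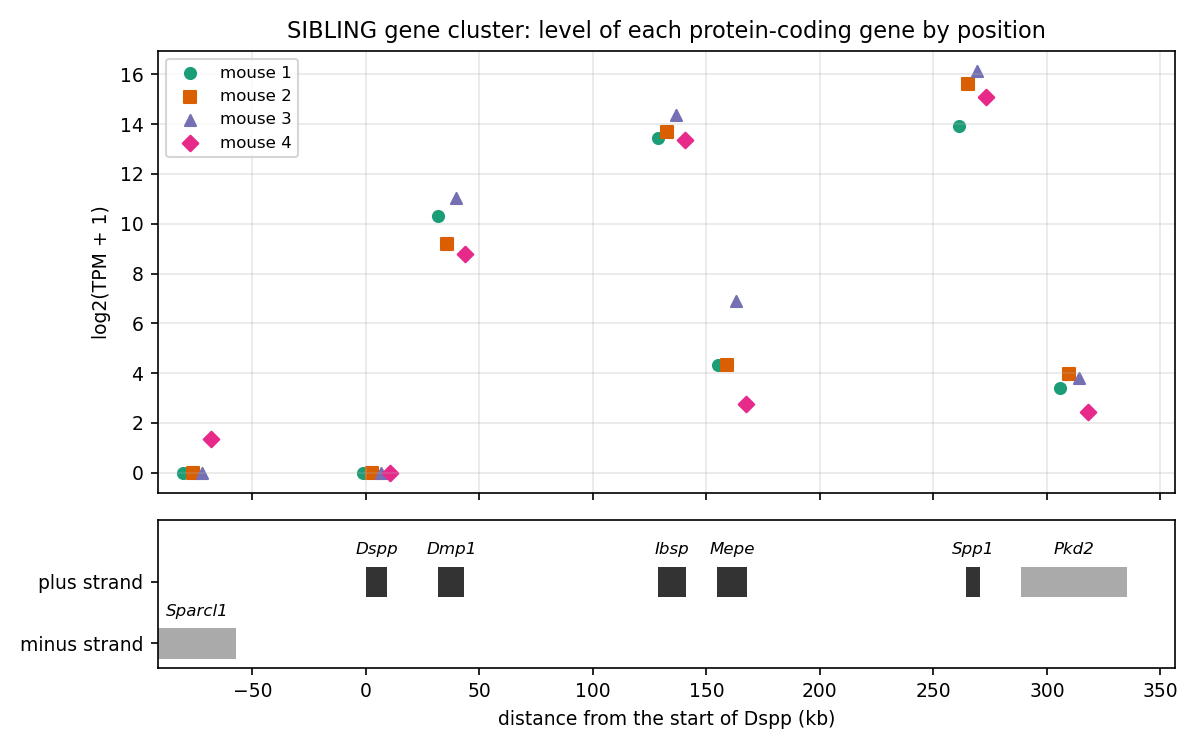
Level of each protein-coding gene of the SIBLING cluster and of the flanking Sparcl1 and Pkd2, as log2(TPM + 1) (upper panel), against the distance in kb from the start of Dspp (lower panel, genes as bars on their strand), with 1 point for each of the 4 mice, spread slightly sideways. Dspp sits at 0 in all mice, Dmp1, Ibsp and Spp1 are far above the flanking genes in all mice, and Mepe spreads from 5.75 to 119 TPM.

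Phex encodes a membrane endopeptidase of osteoblasts and osteocytes that breaks down the acidic peptides of Mepe and osteopontin, and whose loss raises Fgf23. Phex (ENSMUSG00000057457, GRCm38 chromosome X, from 157162075 to 157415312, minus strand) had 56.2, 41.4, 21.3 and 49.7 TPM in mice 1 to 4, and its mean was 42.2 ± 15.1 TPM (SD, n = 4). Mouse 3 was the lowest under all 7 scalings, whereas the 4 detected SIBLING genes were highest in that mouse. The coefficient of variation of Phex, 35.9%, was below the median of 42.4% for genes of 10 to 100 TPM. Dmp1 exceeded Phex by 22.5-, 14.2-, 98.6- and 8.75-fold in mice 1 to 4, a difference of 4.48 ± 1.49 in log2(TPM + 1). Mepe and Phex had no fixed order. Mepe was lower than Phex in mice 1, 2 and 4 and 5.58 times higher in mouse 3, and the mean difference of -0.77 ± 2.27 was smaller than its SD (exact permutation p = 0.5, also after adjustment). It was -1.84 without mouse 3 and -0.06 without mouse 4.

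Pdpn encodes podoplanin, also named E11, a surface protein of young, embedding osteocytes and of lymphatic endothelium and reticular cells. Pdpn (ENSMUSG00000028583, GRCm38 chromosome 4, from 143267431 to 143299564, minus strand) had 1619, 0, 408 and 675 counts in mice 1 to 4, or 50.6, 0, 13 and 35.9 TPM. Mouse 2 thus had none, where 3 counts are worth 0.148 TPM, and the other mice ranged from 13 to 50.6 TPM. The mean was 24.9 ± 22.7 TPM (SD, n = 4), and 16.3 TPM without mouse 1. Such a gap was not particular to Pdpn, since 378 genes that reached 100 counts in mice 1, 3 and 4 had 0 counts in mouse 2, and 57 of such genes reached 400. The same numbers were 45 and 7 for mouse 1, 17 and 1 for mouse 3, and 200 and 37 for mouse 4. Among 5 endothelial markers, Cdh5, Lyve1 and Flt4 had 0 counts everywhere and Prox1 at most 1, and the list summed to between 0.0465 and 0.229 TPM. Dmp1 exceeded Pdpn in 4 of 4 mice, by 6.15 ± 2.55 in log2(TPM + 1), and by 5.14 without mouse 2. The difference in mouse 2, where Pdpn was at 0, is set by the pseudocount, and with 0.1 in place of 1 the mean difference was 7.02 ± 3.99.

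Of the partners of podoplanin, Cd9 had 688 ± 169.9 TPM and Msn, the gene of the cytoskeletal linker moesin, 72.1 ± 5.44 TPM (SD, n = 4 for each). Ezr, the gene of the related linker ezrin, had 340, 0, 245 and 52 counts, and so was missing from the same mouse as Pdpn. The library of mouse 2 held counts on 16109 genes, and the other libraries on 18683 to 18907. A link between the absences of Ezr and Pdpn was not tested. Clec1b, the platelet receptor of podoplanin, had 1 count in all, and Ccl21a had 0.

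Sost encodes sclerostin, by which mature osteocytes restrain bone formation, and Fgf23 encodes the phosphate-wasting hormone of osteocytes. Sost (ENSMUSG00000001494, GRCm38 chromosome 11, from 101962458 to 101967015, minus strand) had 0 counts in all 4 libraries, where 3 counts are worth between 0.0825 and 0.141 TPM. Fgf23 (ENSMUSG00000000182, GRCm38 chromosome 6, from 127072902 to 127081408, plus strand) also had 0 counts, where 3 counts are worth between 0.094 and 0.16 TPM. These floors cover counting error only. Of all protein-coding genes with a length, 29.4% had 0 counts in every library. The osteocyte genes were thus split in these libraries, with Dmp1 and Phex found in all 4 mice and Sost and Fgf23 not detectable in any.

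**Figure D2:**
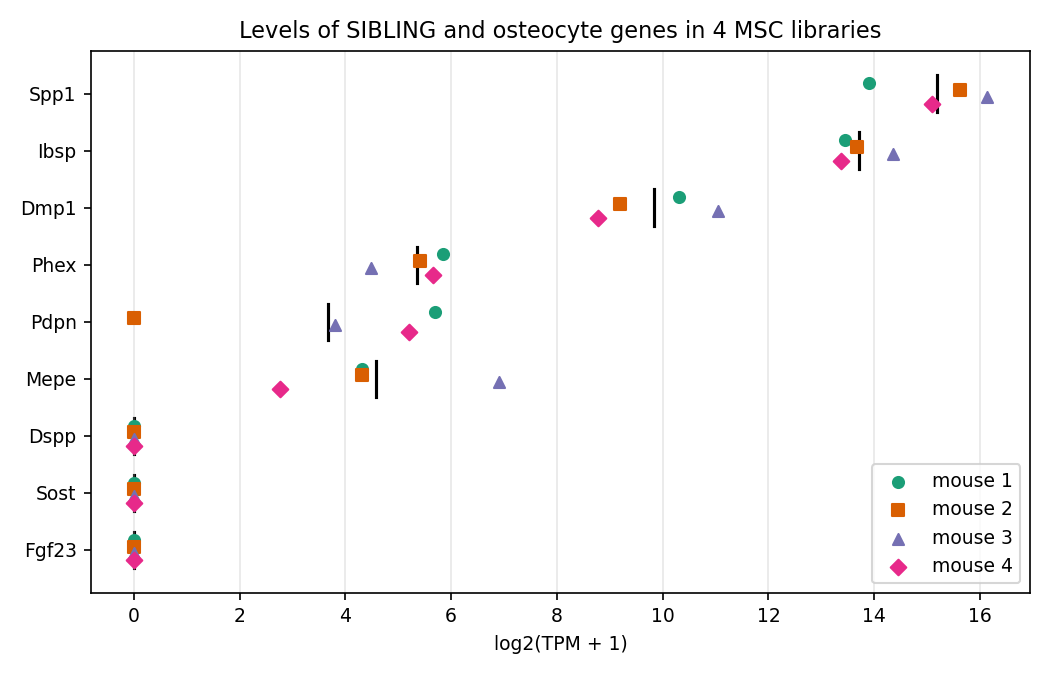
Levels of the 9 genes as log2(TPM + 1) in each of the 4 mice (points), with the mean of the mice (bar), ordered by median level. Spp1 and Ibsp lie above 10000 TPM in every mouse, Dspp, Sost and Fgf23 lie at 0, and Pdpn is at 0 in mouse 2.

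By median level the order was Spp1, Ibsp, Dmp1, Phex, Pdpn and Mepe, followed by the 3 genes at 0. Among neighbours in this order, the ranges over the mice did not overlap for Ibsp and Dmp1, for Dmp1 and Phex, or for Mepe and the genes at 0. They overlapped for Spp1 and Ibsp, for Phex and Pdpn, and for Pdpn and Mepe, and in the pairs that include Pdpn the difference of the means was smaller than the larger SD. Within mice, Phex was above Pdpn in 4 of 4 mice and Pdpn above Mepe in 2 of 4.

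The mice were not ranked alike by all genes. Relative to the mean of the 4 mice in log2(TPM + 1), mouse 3 was above it by 0.95 for Spp1, 0.64 for Ibsp, 1.21 for Dmp1 and 2.33 for Mepe, and below it for Phex, at -0.87. Mouse 1 was at -1.28 for Spp1, but at 0.47 for Dmp1 and 0.49 for Phex. Mouse 4 was at -1.06 for Dmp1 and -1.82 for Mepe, and at 0.32 for Phex. No mouse was on the same side of the mean for all 6 detected genes.

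**Figure D3:**
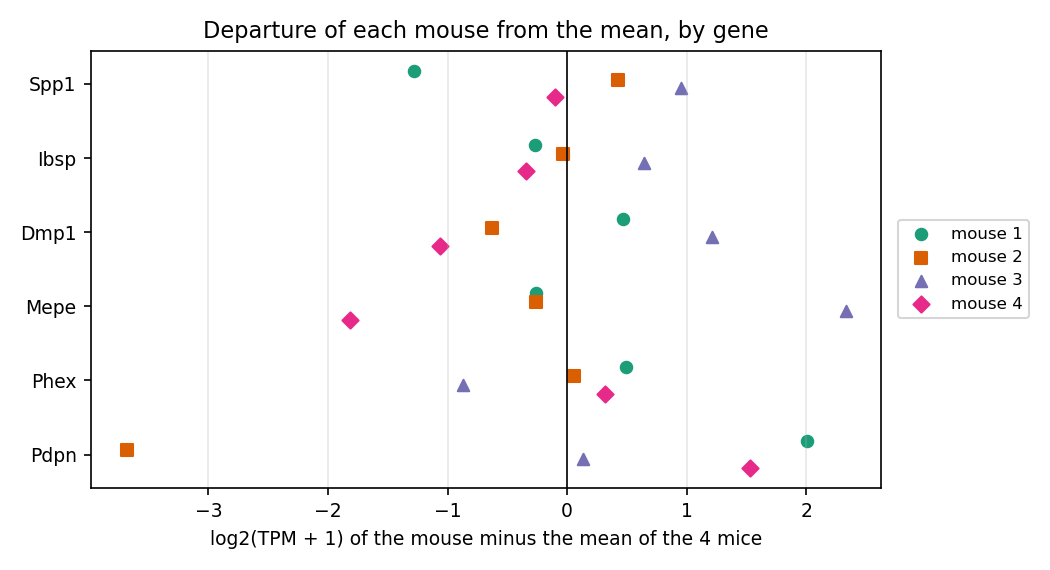
Departure of each mouse from the mean of the 4 mice in log2(TPM + 1), for the 6 detected genes, with 1 point per mouse. Mouse 3 lies to the right for the 4 SIBLING genes and to the left for Phex, and mouse 2 lies far to the left for Pdpn because it had no counts.

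The genes whose levels were distributed over the mice most like those of a member were sought among the other 9043 genes with at least 10 counts in every library. Likeness was the root mean square difference between the log2(TPM + 1) values after each gene was centred on its own mean, over 4 mice. Nearest to Spp1 were Mepce (0.061), Lrrk1 (0.086) and Suv39h1 (0.102), and nearest to Ibsp were Hmgb1 (0.044), Flii and D16Ertd472e (0.050 for both). Nearest to Dmp1 were Pak1ip1 (0.083), Irf2bp1 (0.139) and Lrrc41 (0.146), and nearest to Phex were Rhot2 (0.083), Slc49a4 (0.084) and Sephs1 (0.088). Mepe had no gene within 0.25, its nearest being Map1s at 0.320, while 494 genes were that close to Ibsp. The members were not each other's nearest. The distance between Spp1 and Ibsp was 0.59, against a median over all genes compared of 0.92 from Spp1 and 0.57 from Ibsp, so that Ibsp ranked 879 from Spp1 but Spp1 ranked 4818 from Ibsp. Dmp1 ranked 104 from Mepe, at 0.79, while Mepe ranked 2759 from Dmp1, and Mepe and Phex were at 1.97. With 4 mice such distances describe these libraries and no shared control.

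The genes that process, receive or control these products were taken from lists made by role. These lists were chosen with earlier results of these data known, so their shares are descriptions and cannot test for an excess over all genes. Of 11 genes that modify or cut SIBLING and osteocyte proteins, 9 had a median above 1 TPM, or 81.8%, against 44.2% of the protein-coding genes. In every mouse 8 of them exceeded 1 TPM, as did 8042 of the 52125 genes with a length and 6596 of the 21922 protein-coding genes. Fam20c, the kinase that phosphorylates SIBLING proteins, had 31.7, 28.3, 63.9 and 41 TPM in mice 1 to 4, and its partner Fam20a 13.1, 7.82, 64.4 and 10.7 TPM. Both were thus highest in mouse 3. Bmp1, the protease that cuts Dmp1 and Dspp precursors, had 163 ± 36.6 TPM, while its relative Tll1 had 1 count in all. Galnt3, which shields the Fgf23 protein from cleavage by attaching sugars, had 9.62 ± 5.13 TPM, and the cutting enzyme gene Furin 4.46 ± 1.99 TPM (SD, n = 4 for each). Galnt3 was lowest in mouse 3, at 3.20 TPM. Mmp9 had 433, 32, 879 and 0 counts in mice 1 to 4, and Mmp3 had 27 counts in mouse 4 and 0 in the others.

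Of 8 receptor genes for osteopontin and bone sialoprotein, 6 had a median above 1 TPM, or 75%, against 44.2% of the protein-coding genes. Itgb1 was the highest at 183 ± 20.5 TPM and Itgb5 had 40.4 ± 4.26 TPM (SD, n = 4 for each). Itgav, which pairs with either, had 15.7 ± 2.51 TPM and Cd44 15.8 ± 4.79 TPM. Itgb3 had 1.66 TPM in mouse 1 and between 6.96 and 10.3 TPM in the others. Itga9 had 0.037 TPM in mouse 1 and between 3.79 and 9.27 TPM in the others, whereas Itgav was highest in mouse 1, at 18.1 TPM. Itga5 and Itga8 did not reach a median of 1 TPM, and Itga8 had counts in mouse 4 only. The ligands Spp1 and Ibsp were above each of these receptors in every mouse.

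Of 10 genes for Fgf23 and sclerostin receptors and related Wnt antagonists, 6 had a median above 1 TPM, or 60%. The share was 44.2% over the protein-coding genes and 22.9% over all genes with a length. Kl, the co-receptor klotho of Fgf23, had at most 1 count in a library. Fgfr1, the main receptor for this hormone, had 64.6 ± 20.7 TPM, Fgfr2 26.0 ± 5.18 TPM and Fgfr4 0 counts. The sclerostin targets Lrp5 and Lrp6 had 0.714 ± 0.536 and 5.01 ± 1.61 TPM, and Lrp4, its anchor on the cell, 8.53 ± 4.71 TPM (SD, n = 4 for each). Sostdc1, the closest relative of Sost, had 0 counts in all libraries. Dkk1, a further Wnt antagonist of osteoblasts and osteocytes, had 31.3, 97.1, 23.1 and 136 TPM in mice 1 to 4, and was thus lowest in mouse 3.

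All 7 transcription factors of bone matrix genes exceeded 1 TPM in every mouse, against the 6596 of 21922 protein-coding genes given above, and the median over the list was 112 TPM. Sp7 had 226 ± 89.2 TPM, Dlx5 186 ± 86.4 TPM, Runx2 44.2 ± 6.85 TPM and Mef2c, which acts on the Sost enhancer, 59.0 ± 9.48 TPM (SD, n = 4 for each). The factors differed in how they varied over the mice. Runx2 ranged from 37.4 to 53.7 TPM and was highest in mouse 2. Dlx5 had 186, 102, 304 and 149 TPM in mice 1 to 4. It was highest in mouse 3, as Spp1 was, but lowest in mouse 2, whereas Spp1 was lowest in mouse 1. Sp7 had 339, 158, 255 and 151 TPM and was higher in mice 1 and 3, as Dmp1 was. Of 8 other genes used to mark osteocytes, 7 had a median above 1 TPM, or 87.5%, against 44.2% of the protein-coding genes. Gja1, the gene of connexin 43 that joins osteocytes by their processes, had 397 ± 44.1 TPM, Irx5 42.7, 20.9, 10.3 and 4.36 TPM in mice 1 to 4, and Ackr3 at most 2.60 TPM. Capg had 0 counts in mouse 4 and between 15.0 and 53.2 TPM in the others. Several genes of this list, among them Gja1, Mef2c and Hyou1, are also active outside osteocytes.

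**Figure D4:**
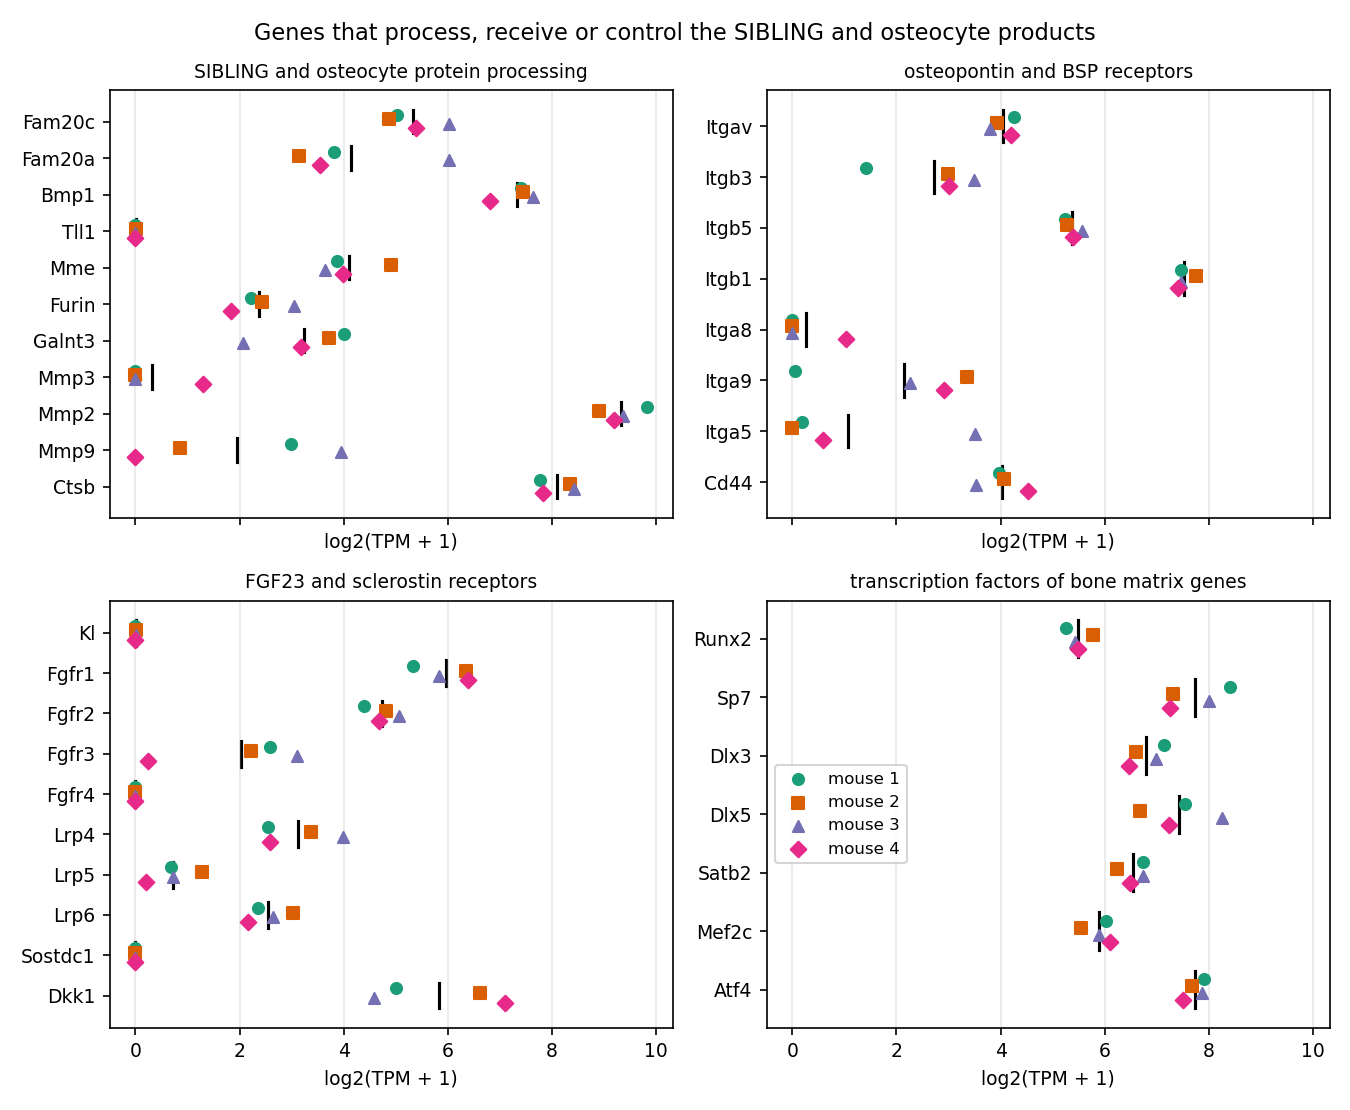
Levels of genes that process SIBLING and osteocyte proteins, serve as their receptors, or control bone matrix genes, as log2(TPM + 1) in each of the 4 mice (points) with the mean (bar). The transcription factors lie above 37 TPM in all mice, and Kl, Fgfr4, Sostdc1 and Tll1 lie at or next to 0.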

How the data were processed

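RNA of 100 sorted MSCs from each of 4 mice was sequenced. Reads were placed on GRCm39 with STAR 2.7.10 and assigned, where unique, to Ensembl exons with featureCounts of Subread 1.6.5, and the authors deposited the raw counts without normalization or pooling. No strand option is named. TPM was derived here (Python 3.11.15), with the union of each gene's exons in GENCODE M21 (GRCm38) as its length. These lengths covered 52125 of 56980 genes and 96.1% to 98.2% of the counts, and the remaining genes were left out. As the annotation is not that of the counts, a TPM is off where exon lengths changed. TPM code was tested on simulated data. Depth was 22738604 to 43545349 counts, so that 3 counts correspond to 0.0689 to 0.132 per 1000000 counts. Floors cover counting error only.

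The 4 libraries are 1 group. The 6 pairs of genes were compared within mice by an exact sign-flip permutation test on log2(TPM + 1), with a pseudocount of 1. Named are the 9 genes, the gene lists by role, the 3 genes of most alike pattern, and neighbours of the SIBLING genes. Genes and lists were chosen with earlier results of these data known. Copies were searched with BLAST 2.17.0 at 95% identity over at least 100 bases, and only Spp1 had one, its overlapping Gm42793. Alternatives used other lengths, denominators and thresholds, edgeR 4.0.16 TMM and DESeq2 1.42.0 size factors, and each mouse left out.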

Additional observations from a re-analysis of the deposited data

Results flagged for a closer look

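In a group of 4, Dixon's rule sets the distance of an extreme mouse from the next one against the full range of the mice. It was applied to 16 values, of which 4 passed its 95% critical value and about 0.8 would do so by chance. For Mepe the distance was 0.883 of the range, with 119 TPM in mouse 3 and from 5.75 to 19 TPM in the remaining mice. This value depends on the use of TPM without a logarithm. In log2(TPM + 1) the departures of mice 1 to 4 from their mean were -0.26, -0.26, 2.33 and -1.82, which sets mouse 3 less far apart. The other 3 values concern mouse 1 and are not independent of each other. Spp1 minus Ibsp in log2(TPM + 1) was 0.46 there and from 1.73 to 1.95 elsewhere (0.851 of the range). Spp1 took 55.3% of the summed SIBLING TPM in mouse 1 and from 75.7% to 78.6% elsewhere (0.874), and Ibsp took 40.1% and from 20.4% to 23.0% (0.869). The cause of these distances was not tested.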

How the results depend on the processing

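The number of the 9 genes with a median above 1 TPM stayed at 6 or fell to 5 under 14 alternatives, and 5 or 6 of them had 3 counts in every library under 7. Leaving the 10 highest genes out of the denominator, which Spp1 and Ibsp are among, moved the mean of Spp1 to 67913, of Ibsp to 21799 and of Phex to 67.7 TPM by construction, and without a length correction Phex, the longest of the 9 genes, had 113 per 1000000 counts. Of 61, the other 57 alternatives moved a mean level by less than 1 SD. Those that leave out 1 of the 4 mice cannot move a mean by 1 SD, so for them this was fixed in advance. All 67 alternatives kept the direction of the 6 differences between genes, but with 4 mice no setting can bring p to 0.05. Many of these alternatives could not have reversed a direction. A factor for a whole library acts on both genes of a mouse alike. A pair with 1 direction in all mice also keeps it when a mouse is left out or the pseudocount is changed. With each mouse left out in turn, the mean ranged over 33594 to 52489 TPM for Spp1, 11606 to 15052 for Ibsp, 762 to 1318 for Dmp1, 14.6 to 52.4 for Mepe, 37.5 to 49.1 for Phex and 16.3 to 33.2 for Pdpn. Without mouse 3 the share of Mepe in the SIBLING sum was 0.0368% in place of 0.0589%, and without mouse 1 that of Dmp1 was 1.36% in place of 2.15%. Thinning every library to the shallowest leaves TPM as it is by construction, and the ribosomal RNA gene that was to be left out of the denominator has no length and was never in it. No paired analysis was possible because there is only 1 group, so that no samples could be paired between groups; the pairs compared are genes within a mouse.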

Other observations

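The genes of bone matrix outside the SIBLING family did not share the order of the mice seen for Spp1. Bglap, the gene of osteocalcin, had 96604, 119827, 55668 and 156730 TPM in mice 1 to 4, and so was lowest in mouse 3, where Spp1 was highest. Only unique reads were counted, so reads that match Bglap and a near-identical copy such as Bglap2 equally well are left out of both. Bglap2 had 64790, 78631, 42376 and 97409 TPM. Col1a1, a chain of type I collagen, ranged only from 22235 to 30450 TPM. Alpl, the phosphatase that supplies phosphate for mineral, had 892, 549.7, 963 and 573 TPM, with mice 1 and 3 above mice 2 and 4, as for Dmp1. The 5 niche genes Cxcl12, Lepr, Kitl, Foxc1 and Ebf3 summed to 1048, 4633, 2369 and 1231 TPM in mice 1 to 4. Most of this sum was Cxcl12, at 983, 4329, 2224 and 1079 TPM. Mouse 2 was the highest for the sum and for each of these genes. Mouse 3 was above mouse 4 for Cxcl12 and Kitl, and below it for Lepr, Foxc1 and Ebf3.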
